A study of Mus musculus with 11 samples.

Results

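Calcium pumps, calcium release channels and the genes of store-operated calcium entry were followed in mouse alveolar macrophages after high oxygen. The 10 genes are Atp2a3, Atp2a2, Atp2b1, Atp2b4, Atp2c1, Itpr1, Itpr2, Itpr3, Stim1 and Orai1, out of 57180 gene identifiers in the deposited count table. They were picked by symbol for their place in calcium handling, with Atp2a3 leading because of its difference between hyperoxia and normoxia in these same libraries. The hyperoxia values of the 10 genes are therefore a description. No p-value is printed for them there, and counts of calls among them in the hyperoxia contrasts are given beside the share over all genes and support nothing. The sexes, the difference between the sexes in response, and other calcium genes were tested. The lists of other calcium genes were chosen with earlier results of these data known, so their calls after hyperoxia are not independent support. All 10 genes were measured, and 10 of 10 passed the filter on low counts.

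RNA was sequenced in bulk from alveolar macrophages, the phagocytes of the lung's air spaces, sorted by flow cytometry from lungs of C57BL/6 WT pups at PND 7 (postnatal day 7). The hyperoxia pups had been kept in 95% oxygen between PND 1 and PND 5, and the normoxia pups had not. The 11 libraries fall into 4 groups: hyperoxia female (HF1 to HF3), hyperoxia male (HM2 and HM3), normoxia female (NF1 to NF3) and normoxia male (NM1 to NM3). The labels name no separate animals or pools behind the replicates, so a p-value measures the spread between libraries, which may be technical.

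A resting cell keeps calcium low in the cytosol and high in the endoplasmic reticulum. SERCA pumps, encoded by Atp2a2 and Atp2a3, fill that store, and inositol trisphosphate (IP3) receptors, encoded by Itpr1, Itpr2 and Itpr3, open it when a surface receptor has activated phospholipase C. STIM1 senses the emptied store and opens the ORAI1 channel of the surface membrane, while PMCA pumps (Atp2b1, Atp2b4) push calcium out of the cell and the SPCA1 pump (Atp2c1) loads the Golgi. Macrophages use such calcium signals in phagocytosis, migration and cytokine release.

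The bases just upstream of the start of 3 genes are shown, to set the promoters of Atp2a3 and Itpr3, whose levels across the libraries were alike, beside that of Stim1, whose level differed little. Capitals mark matches to GGGCGG (the GC box bound by SP factors) or CGGAAG (the core bound by ETS factors) on either strand. The sequences are 250 bases long, from RefSeq on GRCm38.p6.
Atp2a3 (chr11:72960919-72961168, plus strand): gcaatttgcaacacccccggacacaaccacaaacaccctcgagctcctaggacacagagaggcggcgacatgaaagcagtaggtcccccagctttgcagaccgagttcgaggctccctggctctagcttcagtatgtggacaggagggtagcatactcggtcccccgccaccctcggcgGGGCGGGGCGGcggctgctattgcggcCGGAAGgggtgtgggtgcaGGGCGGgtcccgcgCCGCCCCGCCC
Itpr3 (chr17:27057054-27057303, plus strand): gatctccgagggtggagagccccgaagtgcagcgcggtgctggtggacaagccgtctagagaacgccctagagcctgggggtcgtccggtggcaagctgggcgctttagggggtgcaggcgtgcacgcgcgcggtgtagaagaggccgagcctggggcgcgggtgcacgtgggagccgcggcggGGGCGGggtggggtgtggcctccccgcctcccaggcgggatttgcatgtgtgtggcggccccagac
Stim1 (chr7:102267569-102267818, plus strand): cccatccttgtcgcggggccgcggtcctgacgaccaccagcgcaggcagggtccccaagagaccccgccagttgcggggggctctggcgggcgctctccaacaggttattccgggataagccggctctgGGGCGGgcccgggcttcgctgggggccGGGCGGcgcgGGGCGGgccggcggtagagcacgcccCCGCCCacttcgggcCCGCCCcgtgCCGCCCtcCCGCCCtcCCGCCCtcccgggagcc
The Atp2a3 window held 5 GC boxes, counting overlapping matches, and 1 ETS core, with a GC content of 66.8%. The Itpr3 window held 1 GC box at 72.0% GC, and the Stim1 window held 8 GC boxes at 78.4% GC. The windows found for 8 of the 10 genes held no match to TGANTCA (the AP-1 site) or to TGACNNNGC (the core of the antioxidant response element). Atp2a2 and Itpr1 had no entry in the promoter table. Over 32851 promoter windows of the same length, 32.7% held a GC box, 13.6% an ETS core, 6.75% an AP-1 site and 10.2% an antioxidant core, and the median GC content was 52.4%. These matches describe the letters of the windows only.

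Total counts ran from 18087948 to 32579468 per library. HF2, HF3, NF3 and NM3 had 33158 to 35530 identifiers with a count, against 26856 to 30173 in the other 7 libraries. Levels are CPM, counts scaled to a fixed library total, with the library size adjusted by TMM, edgeR's normalization. None of 15 alveolar macrophage markers was at 0. Their sum was 7220 to 10420 CPM in hyperoxia and 6487 to 11850 CPM in normoxia. Most of the 15 were nevertheless lower after hyperoxia. Only 2 of 15 were above 0 in log2 fold change, with a median of -0.28, against -0.03 for all genes tested. Called lower were 3 of the 15, Cidec, Krt79 and Fabp4. Siglecf at -0.69 ± 0.20 (SE) and Chil3 at -0.85 ± 0.25 (SE) were not called. Itgax, the integrin CD11c used to define these cells, was at 385 to 725 CPM in hyperoxia and 302 to 823 CPM in normoxia, and Siglecf was at 157 to 300.3 CPM in hyperoxia and 273 to 377 CPM in normoxia.

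Atp2a3, which encodes SERCA3, a pump known from blood cells, platelets and some epithelia, stood higher in every hyperoxia library than in any normoxia library. It had 26.8, 26.1 and 16.6 CPM in HF1 to HF3 and 18.8 and 25.3 CPM in HM2 and HM3, against 10.7, 8.75 and 9.53 CPM in NF1 to NF3 and 7.68, 4.71 and 6.71 CPM in NM1 to NM3. The gap lay between HF3, the lowest hyperoxia library, and NF1, the highest normoxia library. The means were 22.7 ± 4.70 CPM in hyperoxia (SD, n = 5) and 8.02 ± 2.14 CPM in normoxia (SD, n = 6). The fitted log2 fold change was 1.53 ± 0.18 (SE), a 2.88-fold higher level, and it was 1.65 without HF2, HF3, NF3 and NM3. Both sexes showed the difference, at 1.26 ± 0.24 in females and 1.80 ± 0.26 in males. In bulk RNA, a change in the number of cells of a type and a change in RNA per cell cannot be told apart. The deposited counts behind these levels were 477 to 890 reads in hyperoxia and 113 to 337 reads in normoxia.

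**Figure D1:**
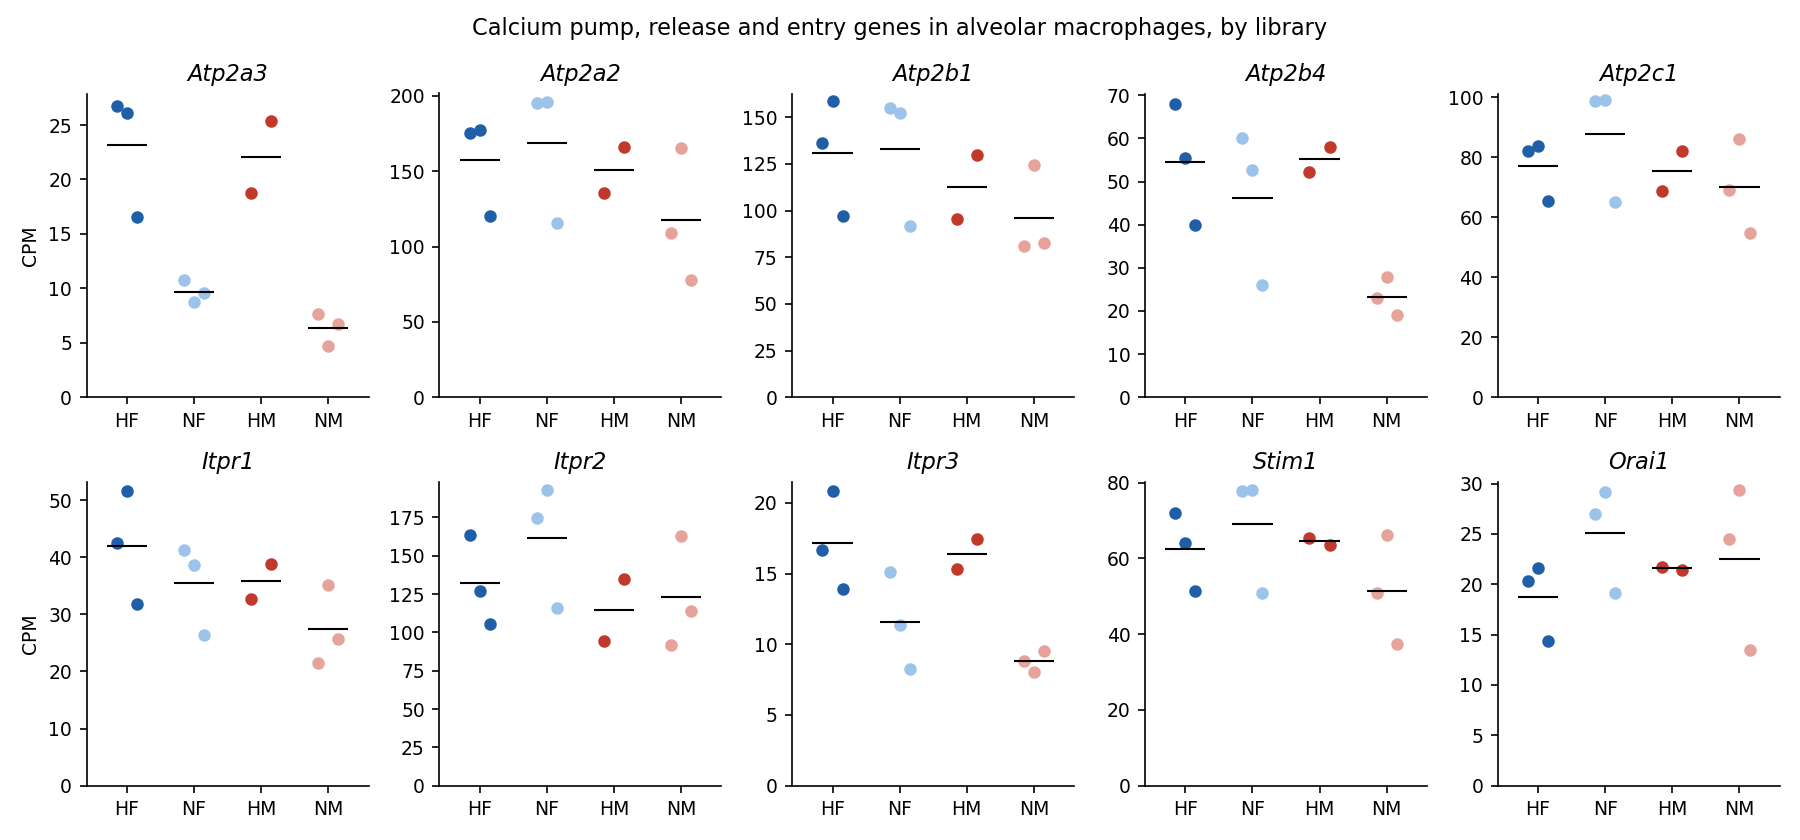
Levels of the 10 genes in CPM (vertical axis, from 0) in each library, by group: HF and HM are hyperoxia female and male, NF and NM normoxia female and male. Points are libraries and bars are group means. For Atp2a3 all hyperoxia points lie at 16.6 CPM or higher and all normoxia points at 10.7 CPM or lower, while the other panels overlap.

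Atp2a2 encodes SERCA2, the pump found in nearly all cells. It had 176, 177 and 120.1 CPM in HF1 to HF3 and 135 and 166 CPM in HM2 and HM3, against 195, 196 and 116 CPM in NF1 to NF3 and 109, 166 and 77.5 CPM in NM1 to NM3. The groups overlapped throughout, and the log2 fold change was 0.13 ± 0.22. Since both encode pumps that fill the endoplasmic reticulum, the share of Atp2a3 in the sum of the pair was taken per kilobase of exon. It is a share of RNA and not of pump activity. It was 14.9%, 14.5% and 13.7% in HF1 to HF3 and 13.8% and 14.9% in HM2 and HM3, against 5.94%, 4.90% and 8.67% in NF1 to NF3 and 7.52%, 3.17% and 9.07% in NM1 to NM3. The hyperoxia libraries were close together and apart from the normoxia libraries, among which NF3 and NM3 were highest. The mean share was 14.4% ± 0.607 in hyperoxia (SD, n = 5) and 6.54% ± 2.29 in normoxia (SD, n = 6). The mean share was close in the sexes, at 14.4% in hyperoxia in both, and at 6.50% ± 1.95 in NF and 6.59% ± 3.06 in NM (SD, n = 3 each). With that spread in normoxia, a difference between the sexes cannot be told from none. SERCA2 was the larger part of the pair in every library by RNA.

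**Figure D2:**
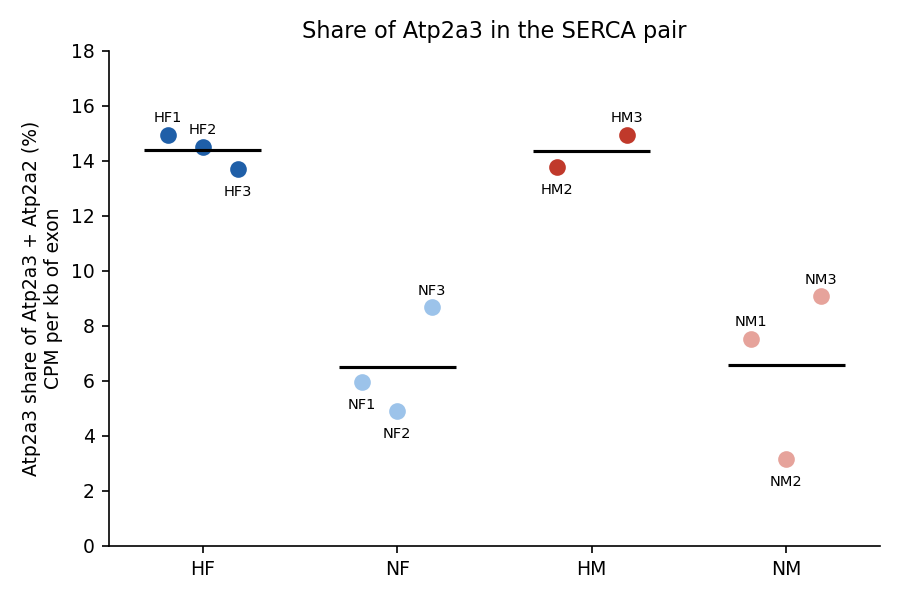
Share of Atp2a3 in the sum of Atp2a3 and Atp2a2, each in CPM per kb of exon (vertical axis, percent, from 0), in each library by group. Points are libraries and bars are group means. The 5 hyperoxia libraries lie between 13.7% and 14.9% and the 6 normoxia libraries between 3.17% and 9.07%.

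Among the pumps of other membranes, Atp2b4 had the largest difference over both sexes. Atp2b4, which encodes PMCA4 of the surface membrane, had 68.0, 55.5 and 39.9 CPM in HF1 to HF3 and 52.3 and 58.1 CPM in HM2 and HM3, against 60.1, 52.6 and 25.9 CPM in NF1 to NF3 and 22.9, 27.9 and 19.1 CPM in NM1 to NM3. Both male hyperoxia libraries were above all 3 male normoxia libraries, whereas in females the groups overlapped and NF3 was far below NF1 and NF2. The log2 fold change was 0.24 ± 0.28 in females, 1.24 ± 0.31 in males and 0.74 ± 0.21 over both sexes. The female value was -0.05 without NF3. Atp2b1, the PMCA1 pump, had 95.3, 129.6 and 159 CPM (lowest, median and highest) in hyperoxia and 81.0, 108 and 155 CPM in normoxia, with a log2 fold change of 0.10 ± 0.21. Atp2c1, the SPCA1 pump of the Golgi, had 65.5, 82.1 and 83.7 CPM (lowest, median and highest) in hyperoxia and 54.7, 77.7 and 99.1 CPM in normoxia, with a log2 fold change of -0.04 ± 0.18. Both overlapped between the groups, and the sign of the difference turned in 3 of 16 alternatives for Atp2b1 and in 5 of 16 for Atp2c1. Atp2c1 lies across Aste1 on the opposite strand, and whether counting used strand is not given in the sources used here, so reads of the pair may be mixed.

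Of the IP3 receptors, Itpr3 stood higher after hyperoxia, and Itpr1 and Itpr2 differed little. Itpr3 had 16.6, 20.8 and 13.9 CPM in HF1 to HF3 and 15.3 and 17.4 CPM in HM2 and HM3, against 15.1, 11.4 and 8.28 CPM in NF1 to NF3 and 8.81, 8.04 and 9.55 CPM in NM1 to NM3. Of the normoxia libraries only NF1 reached the hyperoxia range. The log2 fold change of Itpr3 was 0.73 ± 0.17, and it was 0.56 ± 0.23 in females and 0.90 ± 0.25 in males. Its antisense gene Itpr3os overlaps it, with the same limit on strand. Annotated genes on the opposite strand also overlap Atp2a2, Itpr1, Itpr2, Stim1 and Orai1, so that limit holds for them too. Itpr1 had 31.9, 38.8 and 51.7 CPM (lowest, median and highest) in hyperoxia and 21.6, 30.8 and 41.3 CPM in normoxia, with a log2 fold change of 0.31 ± 0.18. Itpr2, the most abundant receptor of the 3 by CPM per kb of exon, had 94.1, 127 and 164 CPM (lowest, median and highest) in hyperoxia and 91.9, 139.6 and 193 CPM in normoxia, with a log2 fold change of -0.20 ± 0.21. The groups overlapped for Itpr1 and for Itpr2.

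The genes of store-operated entry differed little between the oxygen groups, which overlapped for both. Stim1, the sensor, had 51.5, 64.0 and 72.0 CPM (lowest, median and highest) in hyperoxia and 37.3, 58.5 and 78.2 CPM in normoxia, with a log2 fold change of 0.09 ± 0.19. Orai1, the channel, had 14.4, 21.5 and 21.7 CPM (lowest, median and highest) in hyperoxia and 13.5, 25.7 and 29.4 CPM in normoxia, with a log2 fold change of -0.24 ± 0.20. For Stim1 and Orai1 the lowest values of each oxygen group, HF3 and NM3, were libraries with many identifiers detected. The same 2 libraries were lowest for Atp2a2, Atp2b4 and Atp2c1.

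With edgeR's quasi-likelihood test and an adjusted p under 0.05 over 19948 genes, 141 genes were called between hyperoxia and normoxia over both sexes, which is 0.707% of the genes tested. Of these, 108 were higher (0.541%) and 33 lower (0.165%). Of the 10 genes, 1 was called, Atp2a3. Nothing is read from this or from any count of the 10 genes in this paragraph, since the choice used these libraries and this contrast. DESeq2, which was run without the filter on low counts and so over another set of genes, called 425 genes. Among them were 3 of the 10 genes, Atp2a3, Atp2b4 and Itpr3. In males 8 genes were called (0.0401%), among them 1 of the 10 genes, Atp2a3, and this call was lost without HM3, when the log2 fold change was 1.59. DESeq2 called 86 genes in males, among them Atp2a3 and Atp2b4. In females 8 genes were called by edgeR (0.0401%), with 0 of the 10 genes, and DESeq2 called 80 genes and 1 of the 10, Atp2a3. By edgeR 2 of the 10 had an unadjusted p under 0.05 in females, against 904 of the 19948 genes tested. Without NM2, Atp2a3 was called in females too, at 1.26. Groups that did not overlap between the 5 hyperoxia and 6 normoxia libraries were found for 1 of the 10 genes, against 2.16% of all genes tested. Without HF2, HF3, NF3 and NM3, the log2 fold change over both sexes was -0.01 for Atp2a2, -0.02 for Atp2b1, -0.15 for Atp2c1, 0.01 for Stim1 and -0.39 for Orai1, and that of Itpr3 in females was 0.33. The median log2 fold change of the 10 genes was 0.12 over both sexes, with 7 of 10 above 0, and that of all genes tested was -0.03.

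**Figure D3:**
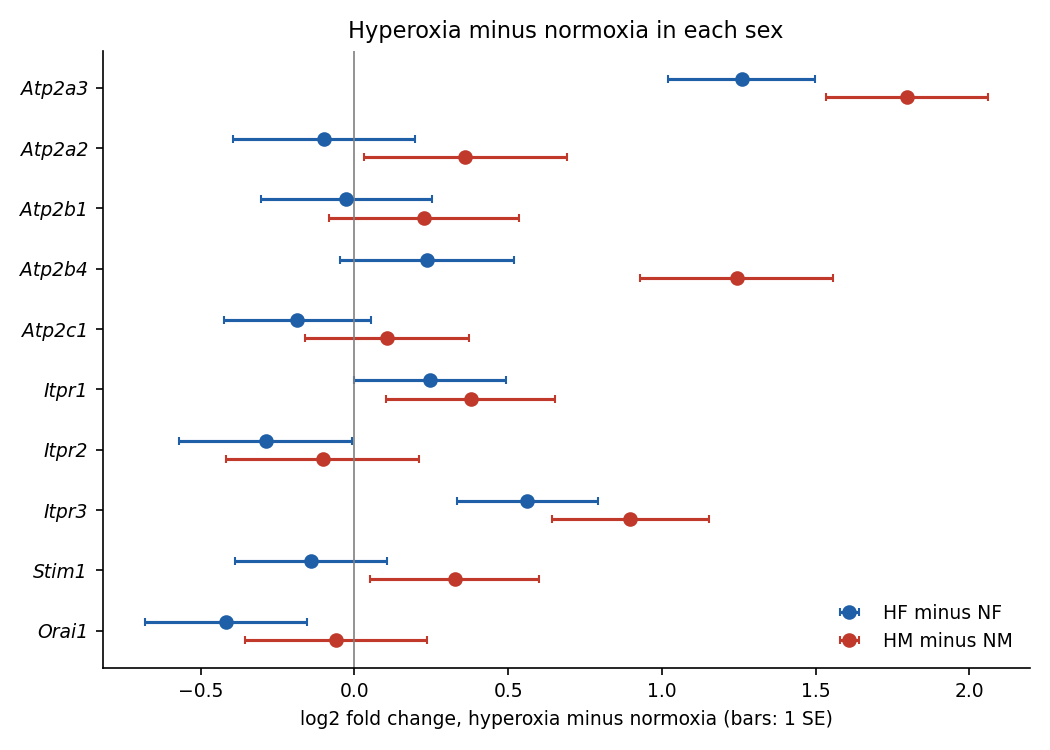
Log2 fold change of hyperoxia minus normoxia (horizontal axis) for each of the 10 genes, in females (HF minus NF, upper point) and in males (HM minus NM, lower point), with bars of 1 SE. In both sexes Atp2a3 is farthest right, at 1.26 in females and 1.80 in males, and the male point lies right of the female point for all 10 genes.

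The choice of the genes did not use the difference between the sexes, and none of the 10 was called there. Over both oxygen groups, 5 genes were called by edgeR between females and males (0.0251%), and 0 of the 10 genes, with 1 at an unadjusted p under 0.05. DESeq2 called 39 genes and none of the 10. That 1 gene was Atp2b4, at 0.48 ± 0.21 higher in females on the log2 scale (edgeR, unadjusted p = 0.0375, adjusted p = 0.994). Atp2a3 was 0.34 ± 0.18 higher in females (edgeR, unadjusted p = 0.0757, adjusted p = 0.994). Its normoxia means were 9.67 ± 0.991 CPM in NF and 6.37 ± 1.52 CPM in NM (SD, n = 3 each), without overlap, and its hyperoxia means were 23.2 ± 5.73 CPM in HF (n = 3) and 22.1 ± 4.62 CPM in HM (n = 2), with overlap. Log2 differences between females and males were above 0 for 9 of the 10 genes, the exception being Orai1 at -0.02 ± 0.20, and their median was 0.30, against 0.01 for all genes tested. The 10 genes share libraries and rise and fall together within groups, so they are not separate evidence.

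The difference between the sexes in response was tested as the female response minus the male response. No gene was called by edgeR (0%), with 334 genes at an unadjusted p under 0.05, 1 of the 10 among them, and DESeq2 called 3 genes and none of the 10. For Atp2b4 the difference was -1.01 ± 0.42 (edgeR, unadjusted p = 0.0296, adjusted p = 1). For Atp2a3 it was -0.54 ± 0.35 (edgeR, unadjusted p = 0.148, adjusted p = 1). An interval of 2 SE either way ran from -1.24 to 0.17 for Atp2a3, so both a like response in the sexes and a male response more than a log2 unit larger lie within it. All 10 differences were below 0, with a median of -0.35. For all genes tested the median was 0.01, and 51.0% were above 0. As the 10 genes share libraries and deviate together within groups, their common sign is not separate evidence from each.

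Levels between genes are compared per kilobase of exon. In hyperoxia the order of the mean levels was Atp2a2 (25.5 ± 4.23 CPM per kb, SD, n = 5), Orai1, Itpr2, Atp2b1, Atp2c1, Stim1, Atp2b4, Atp2a3, Itpr1 and Itpr3 (1.87 ± 0.289 CPM per kb). In normoxia it was Atp2a2 (23.5 ± 8.14 CPM per kb, SD, n = 6), Orai1, Itpr2, Atp2c1, Atp2b1, Stim1, Atp2b4, Itpr1, Atp2a3 and Itpr3 (1.13 ± 0.297 CPM per kb). Neighbours in the hyperoxia order stood apart by more than the larger of their SDs between Atp2a2 and Orai1, Atp2c1 and Stim1, Stim1 and Atp2b4, and Atp2a3 and Itpr1. In normoxia that held between Atp2a2 and Orai1 and between Stim1 and Atp2b4, and the other neighbours lay within their spread. Atp2a3 averaged 4.301 ± 0.890 CPM per kb in hyperoxia, beside Atp2b4 at 4.47 ± 0.830, and 1.52 ± 0.405 CPM per kb in normoxia, between Itpr1 at 1.72 ± 0.436 and Itpr3. Its rank among the 10 was 7 or 8 in the hyperoxia libraries and 8 to 10 in the normoxia libraries.

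Within groups, most of the genes moved up and down together from library to library, and Atp2a3 followed them weakly. Of the 3 HF libraries HF3 was lowest for 10 of 10 genes, and of the NF libraries NF3 was lowest for 9 of 10, the exception being Atp2a3, lowest in NF2. Among NM libraries, NM2 was lowest for Atp2a3 and Itpr3, whereas it was highest for Atp2a2 and the other 7 genes. Pearson's r of the deviations from the group means of log2 CPM, over 11 libraries, was 0.988 for Atp2a2 with Atp2c1 and lay between 0.547 and 0.988 for the pairs of the 8 genes other than Atp2a3 and Itpr3. For Atp2a3 with each of the other 9 genes it lay between -0.02 and 0.56, the highest with Itpr3. These values are a description over values that share each library's depth and scaling. The movement was not particular to the 10 genes. Zzef1, a neighbour of Atp2a3, was also lowest in HF3 and NF3 and highest of the NM libraries in NM2. The same held for the sum of the 15 alveolar macrophage markers, whereas Bok was highest of its groups in HF3 and NF3. The shared deviations were not measured over all genes. HF3 and NF3 are among the libraries with most identifiers detected, and the part of this in the shared deviations was not tested.

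**Figure D4:**
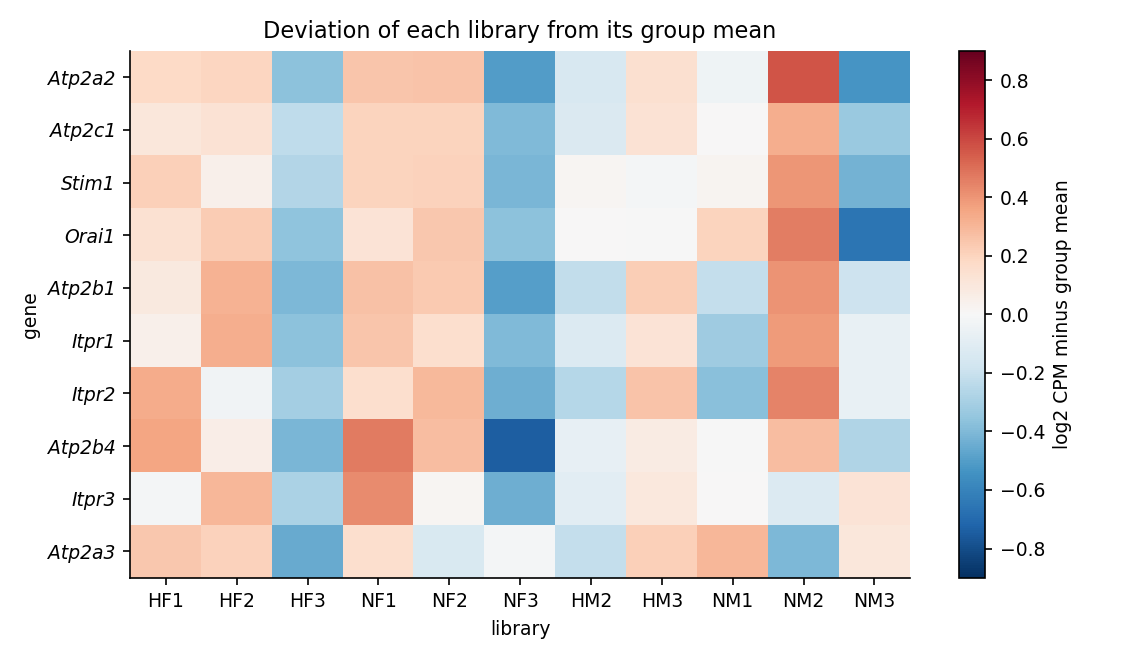
Deviation of each library (columns) from its group mean in log2 CPM (colour, blue below and red above 0) for each of the 10 genes (rows). HF3 and NF3 are blue for most rows and NM2 is red for most, while in the Atp2a3 row NM2 is blue and NF3 is near 0.

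The genes whose levels were most like those of Atp2a3 over the 11 libraries were Tpcn1, Itgam, Xdh, Ptgs1 and St8sia4, out of 11246 genes with a mean log2 CPM of at least 1. Tpcn1, which encodes the TPC1 cation channel of endosomes and lysosomes, had a Pearson's r of 0.986 and a Spearman's rho of 0.991 with Atp2a3. It had 10.2, 9.65 and 7.14 CPM in HF1 to HF3 and 8.12 and 8.27 CPM in HM2 and HM3, against 5.503, 5.05 and 4.48 CPM in NF1 to NF3 and 4.38, 3.33 and 3.72 CPM in NM1 to NM3. As with Atp2a3, each hyperoxia library was above every normoxia library, and within groups r of the deviations was 0.855. Itgam, the integrin CD11b, had r = 0.970, Xdh, xanthine dehydrogenase, 0.962, Ptgs1, the cyclooxygenase COX-1, 0.946, and St8sia4, a polysialyltransferase, 0.937. The most opposite were Gm34280 at -0.954, ENSMUSG00000118663 at -0.920 and Tlr6, a Toll-like receptor, at -0.910. By r of the deviations alone the highest were Tmem69 at 0.938, Zc3h8 at 0.935 and Rabggta at 0.898, and none of these 3 had an r over 0.21 in the levels themselves. Of the 10 genes, Itpr3 was most like Atp2a3 in level (r = 0.906), followed by Atp2b4 (r = 0.758). The oxygen groups lie apart for Atp2a3 and for Tpcn1, which enters r, and values of a library share its depth and scaling.

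**Figure D5:**
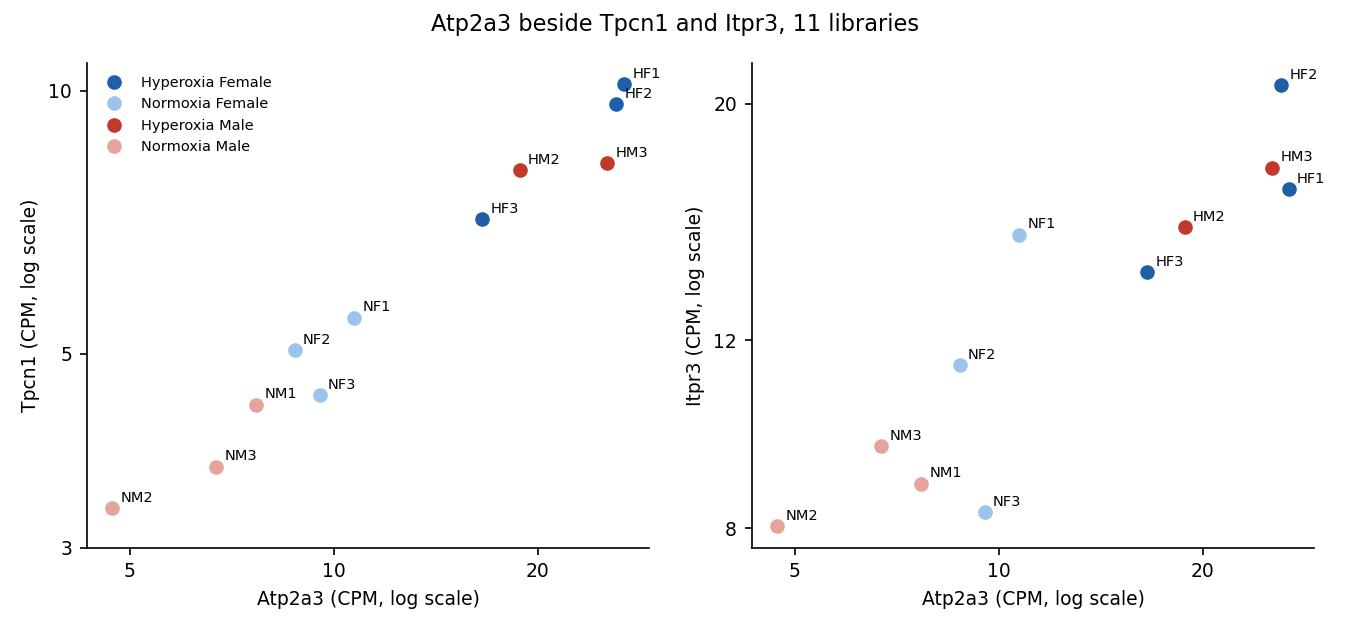
Levels of Tpcn1 (left) and Itpr3 (right) against Atp2a3 in the 11 libraries, in CPM on log axes, coloured by group and labelled by library. Tpcn1 keeps close to a line (r = 0.986), with hyperoxia libraries at the upper right, and Itpr3 is more scattered (r = 0.906), with NF1 high and NF3 low for their Atp2a3 level.

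Other calcium genes were taken as 7 lists of 101 genes, of which 94 were measured. The lists were chosen with earlier results of these data known, so their counts beside the shares over all genes are a description. Of these, 2 were called higher after hyperoxia over both sexes, Tpcn1 and Bok, and 1 lower, Plcb1, against 0.541% and 0.165% of all genes tested. The median log2 fold change of the 94 genes was -0.05, with 42 above 0. Groups that did not overlap were found for 5 of the 94, Tpcn1, Bok, Irag2, Plcb1 and P2rx4, against 2.16% of all genes tested. All 3 called genes stood in the list of other release channels and IP3 supply, which had 23 measured genes and a median of -0.06. Tpcn1 was 0.97 ± 0.17 higher on the log2 scale (edgeR, adjusted p = 0.0135). Bok, a BCL-2 family protein that binds IP3 receptors, had 6.63, 6.72 and 10.2 CPM in HF1 to HF3 and 11.04 and 7.14 CPM in HM2 and HM3, against 2.93, 1.56 and 4.27 CPM in NF1 to NF3 and 4.86, 4.0 and 2.27 CPM in NM1 to NM3. Its log2 fold change was 1.36 ± 0.27 (edgeR, adjusted p = 0.0226), and HF3 and HM2 were its highest libraries. Plcb1, a phospholipase C that makes IP3, had 39.7, 30.9 and 30.9 CPM in HF1 to HF3 and 28.6 and 34.1 CPM in HM2 and HM3, against 72.3, 76.3 and 52.5 CPM in NF1 to NF3 and 44.4, 73.7 and 56.5 CPM in NM1 to NM3. It fell by 0.94 ± 0.18 on the log2 scale (edgeR, adjusted p = 0.0202), and the groups were apart. Each of the 3 calls was lost when HM2 was left out, at log2 fold changes of 0.99 for Tpcn1, 1.20 for Bok and -0.87 for Plcb1, and all 3 were lost without HF2, HF3, NF3 and NM3 together. The call of Tpcn1 was also lost without HM3, at 0.98, and that of Bok without NF1, at 1.36, or NF2, at 1.19. The call of Plcb1 was also lost without HM3, at -1.0, HF2, at -0.91, or NF1, at -0.91.

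In the lists of pumps and regulators (5 measured), store buffers (13), other store-operated entry genes (13), surface entry and exchange (13), mitochondrial uptake (10) and calcineurin, NFAT and CaM kinases (17), edgeR called none. Their medians lay between -0.09 and 0.14, and 0, 0, 0, 1, 1 and 1 of their genes had an unadjusted p under 0.05. The gene nearest to the threshold was Nfatc2, a transcription factor switched on by calcineurin. It had 12.1, 18.2 and 11.7 CPM in HF1 to HF3 and 11.3 and 12.6 CPM in HM2 and HM3, against 9.96, 11.4 and 7.24 CPM in NF1 to NF3 and 5.66, 4.08 and 7.28 CPM in NM1 to NM3, and the groups overlapped, with NF2 just above HM2. Its log2 fold change was 0.82 ± 0.19 (edgeR, adjusted p = 0.0574), and DESeq2 called it. Mcu, the pore of the mitochondrial uniporter, was at 0.61 ± 0.19 (edgeR, adjusted p = 0.21) and its inhibitory partner Mcub at -0.23 ± 0.15 (edgeR, adjusted p = 0.828). Of the store buffers, Calr, the chaperone calreticulin, was at -0.33 ± 0.20 and Rcn2 at 0.26 ± 0.16. Stim2, a paralogue of Stim1, was at 0.31 ± 0.18, and Stimate, a regulator of STIM1, at 0.24 ± 0.14. The exchanger gene Slc8a1 was at 0.32 ± 0.17 and the ATP-gated channel gene P2rx4 at -0.37 ± 0.14. The calmodulin kinase gene Camk1 was at -0.35 ± 0.19. In the other 4 contrasts edgeR called none of the 94 genes.

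The genes beside Atp2a3 were looked at for the same libraries. Zzef1, its left neighbour, had 78.6, 98.8 and 107 CPM (lowest, median and highest) in hyperoxia and 52.8, 84.2 and 118 CPM in normoxia, with overlap and a log2 fold change of 0.11 ± 0.20 (edgeR, adjusted p = 0.994). P2rx1, its right neighbour on the same strand, had 2 to 16 counts in hyperoxia libraries and 0 to 6 in normoxia libraries, at no more than 0.55 CPM in hyperoxia and 0.27 CPM in normoxia. Its log2 fold change was 0.61 ± 0.88 (edgeR, adjusted p = 0.988), too wide at these counts to set against that of Atp2a3. No annotated gene overlaps Atp2a3.

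Markers of other cells that use SERCA3 or could enter the sort were summed beside these results. The 7 measured interstitial macrophage markers were above 0 in log2 fold change in 7 of 7, with a median of 1.07 and none called, and the list summed to 29.9 to 119 CPM in hyperoxia and 19.8 to 43.9 CPM in normoxia. HF2 held the highest sum, and HM2, at 55.5 CPM, was also above every normoxia library. The 8 monocyte markers were above 0 in 8 of 8, with a median of 0.71 and none called, and summed to 1131 to 2270 CPM in hyperoxia and 577 to 2325 CPM in normoxia. Nearly all of the monocyte sum was Fn1, at 1074 to 2206 CPM in hyperoxia and 543 to 2283 CPM in normoxia. The 10 epithelial markers were above 0 in 6 of 10, with none called, and summed to 363 to 446 CPM in hyperoxia and 172 to 349 CPM in normoxia. Most of that sum was Cdh1, at 259.9 to 394 CPM in hyperoxia and 101 to 273 CPM in normoxia, while Epcam was at 2.49 to 4.90 CPM in hyperoxia and 4.49 to 7.88 CPM in normoxia. The surfactant genes Sftpc, Sftpb and Sftpa1 had log2 fold changes of 0.71 ± 0.39, 0.95 ± 0.28 and 0.68 ± 0.32. The platelet list summed to 1.422 to 2.93 CPM in hyperoxia and 0.509 to 8.05 CPM in normoxia, and Ppbp, the platelet basic protein, was at 0 in 5 of the 11 libraries. The T and NK cell list summed to 56.5 to 102 CPM in hyperoxia and 145 to 199.6 CPM in normoxia, most of it Cd2, which was called lower (edgeR, log2 fold change -1.14 ± 0.19, adjusted p = 0.00903). Of the 7 measured markers of that list 5 were above 0, with a median of 0.46. Cd3e, of the T cell receptor complex, was at 0.763 to 1.68 CPM in hyperoxia and 0.388 to 1.81 CPM in normoxia, and the B cell list summed to 8.76 to 12.7 CPM in hyperoxia and 6.17 to 13.1 CPM in normoxia. Of the 6 measured neutrophil markers 3 were above 0, and the list summed to 45.2 to 51.9 CPM in hyperoxia and 36.2 to 67.5 CPM in normoxia, with Ly6g at 0 in every library. Mmp8, a neutrophil collagenase, was called higher, at 22.0 CPM in hyperoxia and 10.6 CPM in normoxia on average (edgeR, log2 fold change 1.08 ± 0.22, adjusted p = 0.0299). Csf3r went the other way, at 15.8 CPM in hyperoxia and 32.7 CPM in normoxia on average (edgeR, -1.02 ± 0.26, adjusted p = 0.0897). The median log2 fold change of the neutrophil list was -0.26. Of the 6 dendritic cell markers 5 were above 0 and none was called, and the list summed to 5.04 to 16.2 CPM in hyperoxia and 4.21 to 11.2 CPM in normoxia, with Clec9a higher in each hyperoxia library (1.26 to 2.68 CPM) than in any normoxia library (0.0833 to 1.02 CPM). The 8 endothelial markers were above 0 in 0 of 8, with a median of -0.70 and none called. Their sum was 18.7 to 53.4 CPM in hyperoxia and 28.4 to 88.6 CPM in normoxia. The 8 mesenchymal markers were above 0 in 2 of 8 and the 2 measured mast cell markers in 1 of 2, with none called. The 6 erythroid markers were above 0 in 0 of 6, with a median of -1.30 and none called. They summed to 52.2 to 301.9 CPM in hyperoxia and 100.8 to 1200 CPM in normoxia. The part of RNA from any of these other cells in the levels of Atp2a3, Atp2b4 and Itpr3 was not tested.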

How the data were processed

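The deposited table gives whole-number counts per Ensembl gene and library, not normalized by the authors. Per the labels' protocols, RNA of sorted cells went into a low-input SMART-Seq kit, and an 8-nucleotide molecular identifier was trimmed. STAR 2.7.9 and Salmon 1.10.1, on build mm39, are listed with Trim Galore 0.6.7, DESeq2 1.42 and R 4.3.2, per the submitters' processing notes. The sources used here give neither their roles nor whether identifiers were collapsed or strand was used. A gene name table matched 51884 of 57180 identifiers.

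The fits used edgeR 4.0.16 under R 4.3.3. The expression filter, by group (count of about 10, total of 15), left 19948 genes. Libraries were scaled by TMM, the 11 libraries entered a single model of group means, and 5 contrasts were tested with the robust quasi-likelihood F-test and Benjamini-Hochberg adjustment over all genes. SEs come from that test. CPM per kb used exon lengths of GENCODE M21, a GRCm38 annotation used for lengths, overlaps and neighbours only. Likeness used log2 CPM with a prior count of 2. Total counts were 18087948 to 32579468, and 3 counts, the floor, were 0.088 to 0.160 CPM, which covers counting error only. Within groups, every pair of libraries differed by more than sampling noise. The members, gene lists and markers were chosen with earlier results of these data known.

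Named beside the members are calcium genes called in any contrast, the 2 of smallest p per list, the 5 genes most and 3 least like Atp2a3, the 3 of highest r of deviations, and its neighbours. Irag2 was named after its values were seen, and genes the rule names in the list of other pumps and regulators are not reported here. Alternatives were DESeq2 1.42.0, its size factors, no filter, a replicate block, leaving out each library, and leaving out HF2, HF3, NF3 and NM3 together.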

Additional observations from a re-analysis of the deposited data

How the results depend on the processing

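Over both sexes, 141 genes were called between hyperoxia and normoxia. The count was 176 with DESeq2's size factors, 425 with DESeq2, 302 without the filter, 256 with the replicate block and 23 without HF2, HF3, NF3 and NM3. In males the 8 calls became 86 with DESeq2, 83 without the filter, 21 with the block and 16 without the 4 libraries. In females the 8 calls became 80, 96, 23 and 2 under the same settings. Between females and males the 5 calls became 39 with DESeq2, 62 without the filter and 9 with the block. For the difference in response the count of 0 became 3 with DESeq2, 6 without the filter and 1 without the 4 libraries. Leaving out 1 library at a time gave 36 (without HM3) to 195 (without NM2) calls over both sexes, 0 (without HM3) to 19 (without NM1) in males, 0 (without HF2 or HF3) to 24 (without NM2) in females, 5 to 14 (without NF3) between the sexes, and 0 to 1 (without NM1) for the difference in response. The cause of these shifts was not tested.

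Atp2a3 was chosen on this contrast, so its repeats are a description and add no support. Its log2 fold change over both sexes lay between 1.423 and 1.650, and it was called in 16 of 16 alternatives there, in 15 of 16 in males and in 4 of 16 in females, by DESeq2, without the filter, with the block and without NM2. Atp2b4 and Itpr3 were called over both sexes by DESeq2, without the filter and with the block, and Itpr3 also without NF1 or NM3. In males Atp2b4 was called by DESeq2, without the filter and with the block. Over both sexes, the sign turned in 5 of 16 alternatives for Atp2c1, 3 for Atp2b1, 1 for Atp2a2 and 1 for Stim1. For Tpcn1 with Atp2a3, Spearman's rho was 0.991, and r was 0.9825 to 0.9905 without single libraries.

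Libraries of the same number deviated together (r over 0.1) in 7 of 15 pairs. HF3 with NF3 had r = 0.43, HF3 with NM3 0.49 and NF3 with NM3 0.57, all libraries with many identifiers detected. HM3 with NF3 had r = -0.14. Some pairs of different numbers also passed 0.1, such as HF1 with NM2 at 0.51, HF1 with NF2 at 0.37 and NF1 with NM2 at 0.32. Others did not, such as HF1 with NF3 at -0.47. Whether the numbers mark pairs or a batch is not given in the labels and was not tested. The main fit did not pair them. Without the 4 libraries, HF1 is the only hyperoxia female library, taken to vary like the other groups. With 2 or 3 libraries a group, small differences cannot be told from the spread, and which libraries were resequenced is not clear from the labels.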
